A study of Mus musculus with 20 samples.

Results

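Astrocyte genes were followed in RNA from the amygdala, the forebrain structure that links sensory input to fear and stress responses, of 20 adult mice. The set held 31 named genes, Gfap, Aqp4, Slc1a2 and Gja1 among them, taken as the rows of the count table that carry those gene symbols. Of the 29671 genes in the table, 16727 passed the filter on low counts, and all 31 astrocyte genes were among them, each with at least 1 count in every library. All animals were male C57B6 mice at postnatal day 84, bred in house from Taconic stock and never used in behavioural tests. They belonged to the first (F1) or second (F2) generation after a chronic unpredictable stress procedure that, by the series title, was given in adolescence, or to the same generation of a lineage without stress. Each generation had a stress and a no-stress group, and each of these 4 groups held 5 mice, so the word stress names the lineage and not a treatment of the mouse that was sampled. The labels call the mice biological replicates and give no litter, sire or stressed parent. Whether the 5 mice of a group are independent could therefore not be checked. The p-values set group differences against the spread between these mice, each taken as independent. They may be too small for a lineage effect if mice of a group shared a litter or sire.

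Astrocytes are the glial cells that surround synapses and blood vessels. They clear glutamate from the synapse through the transporters encoded by Slc1a2 and Slc1a3, turn it into glutamine with the enzyme encoded by Glul, and return the glutamine to neurons. Gap junctions of the connexins encoded by Gja1 and Gjb6 couple astrocytes into a network that spreads potassium and small metabolites, and the water channel encoded by Aqp4 lines their end-feet on vessels. In bulk tissue such as these punches, fewer astrocytes and less RNA per astrocyte cannot be told apart.

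Libraries held between 13654890 and 13714805 counts, and the tissue label was checked with 6 markers of amygdala nuclei chosen after the data were seen. Slc17a7, Rspo2 and Neurod6 of basolateral neurons and Prkcd, Tac2 and Crh of central neurons were above 0 in all 20 libraries. That is a weak check of the label. Rspo2 ranged from 0.908 to 41.1 counts per 1000000 counts of the scaled library (CPM), Neurod6 from 0.504 to 62.7 CPM and Slc17a7 from 29.5 to 960 CPM. Prkcd ranged from 6.87 to 45.5 CPM, Tac2 from 2.57 to 28.8 CPM and Crh from 2.53 to 7.69 CPM. The summed level of 14 markers of striatal medium spiny neurons, which lie beside the amygdala, ranged from 1095 to 9859 CPM, with a mean of 6213 ± 2375 CPM in F1 no-stress and 3656 ± 1111 CPM in F1 stress (SD, n = 5). The mix of neurons thus varied between punches, and its part in the astrocyte values was not tested.

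A pair of F2 libraries stood apart in the astrocyte genes. In F2 stress replicate 15, 30 of the 31 genes were above their own mean over the 20 libraries, and their CPM summed to 13110, the highest sum. In F2 no-stress replicate 17, 1 of 31 was above its mean and the sum was 8867 CPM, the lowest. Counts and medians of F2 below are also given without both libraries, a setting chosen after the data were seen. Both were picked on the levels of these same genes. Leaving out the highest stress library, the lowest no-stress library or both lowers most F2 values of these genes and of their sum by construction. Such shifts below are therefore not independent evidence.

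**Figure D1:**
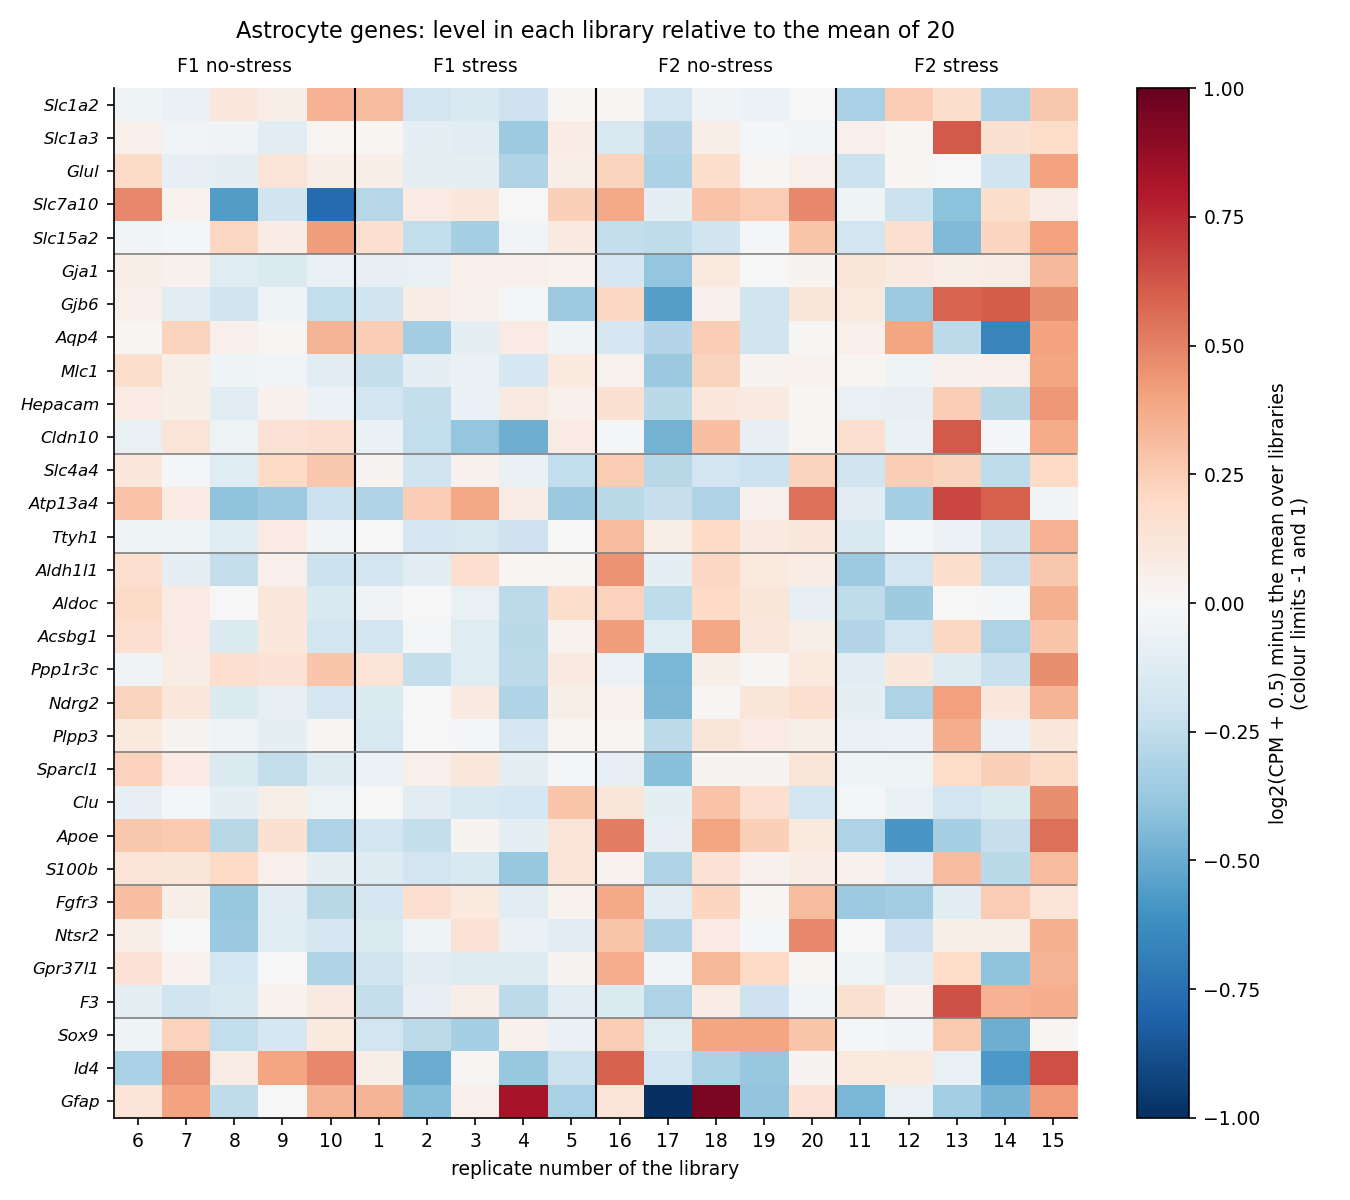
Each row is 1 astrocyte gene and each column 1 library, named by its replicate number and sorted by group. Colour gives log2(CPM + 0.5) minus the gene's mean over the 20 libraries. The column of F2 stress replicate 15 is red in 30 of 31 rows and that of F2 no-stress replicate 17 blue in 30 of 31.

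Ranges of the summed level overlapped between the lineages in both generations, and the sum was not tested. The level was 10776 ± 390.5 CPM in F1 no-stress, 10214 ± 732 CPM in F1 stress, 10609 ± 1007 CPM in F2 no-stress and 10944 ± 1473 CPM in F2 stress (SD, n = 5). The mean log2 difference of the stress from the no-stress lineage was −0.080 in F1 and 0.040 in F2. The F2 value turned to −0.027 without F2 stress replicate 15, to −0.023 without F2 no-stress replicate 17 and to −0.091 without both. Slc1a2 made up 26.8% of the sum, Sparcl1 13.8% and Glul 9.48%, the 3 largest shares. These are shares of the mean level and not of the differences between libraries.

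**Figure D2:**
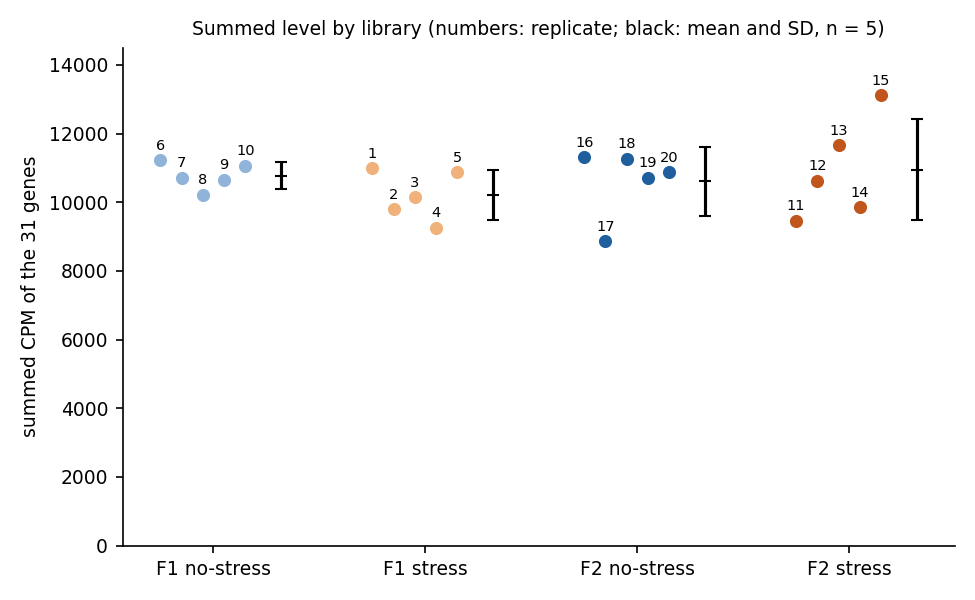
Points are the summed CPM of the 31 astrocyte genes in each library, numbered by replicate; black bars are the mean and SD of 5 libraries. F2 stress replicate 15 lies at 13110 CPM and F2 no-stress replicate 17 at 8867 CPM, with the other 18 libraries between 9254 and 11659 CPM.

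Levels can be compared between genes only per length, here as mean CPM per kilobase of the annotated transcript. On that scale Sparcl1, which encodes a secreted matrix protein that promotes synapses, was highest at 533.5. Glul followed at 361, Apoe at 348, Clu at 341, Ndrg2 at 314.5 and Slc1a2 at 246. The lowest were Slc15a2 at 5.68, the transcription factor gene Sox9 at 3.60 and Atp13a4, which encodes a P-type ATPase, at 2.58. Gfap, the gene of the intermediate filament by which astrocytes are most often stained, ranked 21 of 31 at 18.6 CPM per kilobase.

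The question of the comparison between lineages was whether an ancestor's stress is visible in the RNA of later generations. It was tested across all genes with the quasi-likelihood test of edgeR, and genes with a p below 0.05 after Benjamini-Hochberg adjustment over all of them count as called. Log2 fold changes are of stress over no-stress and are given ± the SE of the fit. In F2, 1 of the 31 astrocyte genes was called, F3, which was higher in the stress lineage. Of all 16727 genes, 7.92% were called in F2, 2.64% as higher and 5.28% as lower. A count of 1 in 31 is too small to be told apart from these shares. At an unadjusted p below 0.05 there were 6 of 31, against 25.6% of all genes. DESeq2 called 2 of 31 (12.6% of all genes) and limma-voom 1 (7.68%), and at an adjusted p below 0.1 edgeR called 2 (15%). Without replicates 15 and 17, 3 of 31 were called (F3 higher, Apoe and Ttyh1 lower), against 9.56% of all genes, and 14 of 31 had an unadjusted p below 0.05, against 26.3%. The F2 log2 fold changes of the 31 genes ran from −0.37 to 0.44, with a median of 0.073 against 0.0013 over all genes, and 18 were positive and 13 negative. The F2 sign changed in 11 of 31 genes without replicates 15 and 17, leaving 7 positive and a median of −0.11. This downward shift, and the calls of lower genes in that fit, go the way set by the choice of the libraries. In F1, 0 of 31 were called, as were 0% of all genes. No astrocyte gene had an unadjusted p below 0.05 in F1, against 6.16% of all genes, and DESeq2 (0.00674% of all genes) and limma-voom (0%) called 0 of 31 as well. The F1 median was −0.072, with 10 positive and 21 negative values. For 0 of 31 genes were the stress and no-stress libraries fully separate in either generation, against 1.24% of all genes in F1 and 4.62% in F2.

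**Figure D3:**
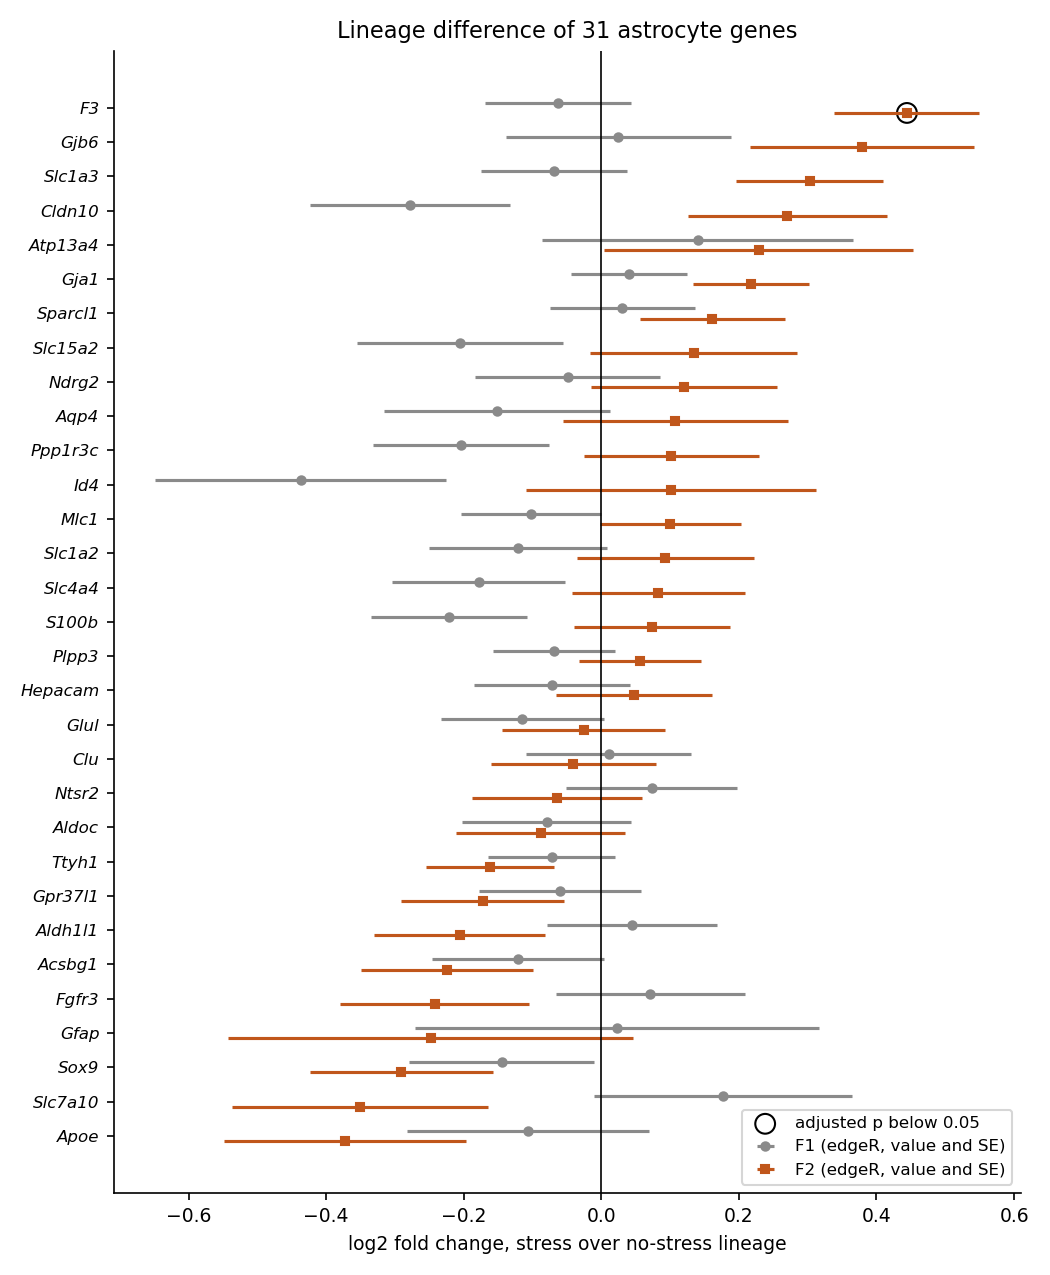
Log2 fold change of the stress over the no-stress lineage for each of the 31 genes, in F1 (grey circles) and F2 (orange squares), with the SE of the fit as bars; genes are sorted by the F2 value. F3 is circled as the 1 gene with an adjusted p below 0.05.

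F3, at chr3:121723537-121735048 (GRCm38, plus strand), encodes tissue factor, the membrane receptor that starts blood coagulation and that astrocytes supply in brain. Its level in F2 stress replicates 11 to 15 was 36.8, 33.9, 51.4, 42.1 and 42.6 CPM. In F2 no-stress replicates 16 to 20 it was 29.95, 26.5, 34.8, 28.5 and 32.3 CPM. Thus 4 of 5 stress libraries lay above every no-stress library, and replicate 12, at 33.9 CPM, lay below no-stress replicate 18, at 34.8 CPM. Group means were 41.4 ± 6.72 CPM and 30.4 ± 3.23 CPM (SD, n = 5), a log2 fold change of 0.44 ± 0.11 (SE) with an edgeR adjusted p of 0.0178. In F1 the stress libraries stood at 27.8, 31.1, 34.6, 27.4 and 30.5 CPM and the no-stress libraries at 30.98, 28.7, 29.6, 33.9 and 35.1 CPM. These F1 groups covered nearly the same range, and the F1 log2 fold change was −0.063 ± 0.11 (SE, adjusted p 0.883).

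F3 was called in 18 of the 20 fits without 1 library, and both exceptions left out an F2 library. Fits without an F1 library keep every F2 library and so say little about the F2 difference. F3 was not called with only the F2 groups in the fit or with the GC and length correction described below. Its log2 fold change was 0.35 with an edgeR adjusted p of 0.0532 without F2 stress replicate 13, and 0.40 with an adjusted p of 0.0562 without F2 no-stress replicate 17. In these fits 3.29% and 2.12% of all genes were called. Without replicates 15 and 17 together it was 0.39 (adjusted p 0.0431). With only the F2 groups in the fit, where 0% of all genes were called, it was 0.45 (adjusted p 0.102). With the GC and length correction, where 0.00598% of all genes were called, it was 0.33 (adjusted p 0.191). With the mean level of the other 30 astrocyte genes as a covariate it was 0.45 (adjusted p 0.0118). F3 is also made by cells of vessel walls and meninges, whose 14 markers were all detected and summed to 275 ± 66.8 CPM in F2 stress and 308 ± 31.2 CPM in F2 no-stress. With their mean level as a covariate the F3 value was 0.51 (adjusted p 0.0183).

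The promoters of the 4 astrocyte genes with the smallest F2 p among those of positive sign, F3, Slc1a3, Gja1 and Gjb6, were read from RefSeq (GRCm38.p6) and those of the first 3 are printed to show the sequence before the starts of the called gene and its nearest followers. Of the 31 genes, 27 were matched. Searched on both strands of the 250 bases before the start were a TATA box (TATAAA) and the Sp1 box (GGGCGG). Also searched were an AP-1-like site (TGANTCA), a STAT site (TTCCNGGAA) and the palindromic glucocorticoid response element, where N is any base. Windows before the starts of F3 (chr3:121723287-121723536, plus strand), Slc1a3 (chr15:8710808-8711057, minus strand) and Gja1 (chr10:56377050-56377299, plus strand) follow, 5′ to 3′, with matches in capitals.
F3: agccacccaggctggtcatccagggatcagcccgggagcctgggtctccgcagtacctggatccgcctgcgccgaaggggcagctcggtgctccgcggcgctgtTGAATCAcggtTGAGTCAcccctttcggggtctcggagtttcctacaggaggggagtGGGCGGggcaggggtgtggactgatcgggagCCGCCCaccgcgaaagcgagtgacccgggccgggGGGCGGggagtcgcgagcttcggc
Slc1a3: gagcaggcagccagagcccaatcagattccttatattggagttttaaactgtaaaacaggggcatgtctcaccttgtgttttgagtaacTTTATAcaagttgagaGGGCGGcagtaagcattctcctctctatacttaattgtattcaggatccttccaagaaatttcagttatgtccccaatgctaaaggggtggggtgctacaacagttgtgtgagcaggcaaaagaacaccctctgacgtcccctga
Gja1: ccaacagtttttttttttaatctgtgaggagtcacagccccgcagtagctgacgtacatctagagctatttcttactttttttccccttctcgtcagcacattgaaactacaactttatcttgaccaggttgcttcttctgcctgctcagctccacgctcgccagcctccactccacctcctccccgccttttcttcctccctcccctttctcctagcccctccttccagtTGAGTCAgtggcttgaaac
The F3 window has 3 Sp1 boxes, 1 of them read on the other strand, and G and C make up 70% of it. It also has 2 matches to TGANTCA close together, TGAATCA and TGAGTCA, which differ at the base left free in that pattern. The Slc1a3 window has a GC content of 44.8%, with 1 TATA box and 1 Sp1 box, and that of Gja1 has 50%, with 1 AP-1 site. The Gjb6 window (chr14:57133612-57133861, minus strand) held none of these letters. Among all 32851 promoter windows, 32.7% held the Sp1 box and 12.4% the TATA box, on either strand. The AP-1-like site was in 6.75%, the STAT site in 0.913% and the glucocorticoid element in 0.00913%. Of 36 windows of the astrocyte genes, 16, 3, 3, 1 and 0 held them in that order. A match describes letters and shows no binding.

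Genes of glutamate uptake and amino acid transport were 5: Slc1a2, Slc1a3, Glul, Slc7a10 and Slc15a2. None of the 5 was called in F1 or F2 by edgeR, and 1, Slc1a3, had an unadjusted p below 0.05 in F2. Of their F2 values 3 were positive, and 1 (Slc1a3, 0.27) without replicates 15 and 17, where Slc1a3, Glul (−0.21) and Slc7a10 (−0.47) had an unadjusted p below 0.05 and none was called. Slc1a3 (chr15:8634124-8710764) encodes the glutamate transporter GLAST. It stood at 634, 620.3, 938, 681 and 696 CPM in F2 stress and at 552, 499, 639.9, 603 and 599.6 CPM in F2 no-stress. The stress libraries were mostly above the others, with replicate 13 far above the rest of its group and replicates 11 and 12 below no-stress replicate 18. The log2 fold change was 0.30 ± 0.11 (SE, edgeR adjusted p 0.0803). It fell to 0.19 without replicate 13 (adjusted p 0.236), and DESeq2 called it at 0.31 (adjusted p 0.0394; 12.6% of all genes were called). In F1 the values were 619, 572, 567, 475 and 645 CPM in stress and 633, 601, 596, 569 and 619 CPM in no-stress, overlapping groups with a log2 fold change of −0.069 ± 0.11.

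Slc1a2 (chr2:102658659-102790784), which encodes the main glutamate transporter of the forebrain, had the most counts of the 31 genes. In F2 stress it was 2259.7, 3373, 3191, 2276 and 3408 CPM, and in F2 no-stress 2857, 2471, 2747, 2714 and 2814 CPM. The stress libraries fell on both sides of the narrow no-stress range, 3 above it and 2 below it. The F2 log2 fold change was 0.093 ± 0.13 (SE, adjusted p 0.692). F1 stress libraries held 3507, 2474, 2535, 2444 and 2858 CPM and F1 no-stress libraries 2742, 2692, 3043, 2952 and 3599.6 CPM, again overlapping, with a log2 fold change of −0.12 ± 0.13.

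Glul (chr1:153899944-153909723), the gene of glutamine synthetase, differed least in F2, with a log2 fold change of −0.026 ± 0.12 (SE, adjusted p 0.920). Its levels were 863, 1014, 998, 869 and 1319.9 CPM in F2 stress and 1168, 804, 1134, 1009 and 1039 CPM in F2 no-stress. The highest F2 value was that of replicate 15 and the lowest that of replicate 17. F1 stress mice had 1049, 934, 937, 811 and 1046 CPM and F1 no-stress mice 1144, 945, 943, 1095 and 1047 CPM, which overlapped. Slc15a2, a peptide transporter gene, had F2 and F1 log2 fold changes of 0.13 ± 0.15 and −0.20 ± 0.15. Slc7a10, which encodes a transporter of small neutral amino acids, had −0.35 ± 0.19 and 0.18 ± 0.19. Exons of Slc7a10 overlap those of Lrp3 on the other strand, and whether counting used the strand is not given in the sources used here. Lrp3 had a mean of 42.9 CPM against 17.1 CPM for Slc7a10, so the Slc7a10 values are uncertain.

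Genes of gap junctions, the water channel and junctional membrane proteins were 6, and all 6 had positive F2 values with all libraries, from 0.048 to 0.38 with a median of 0.16. That direction was not kept by Aqp4, Mlc1 and Hepacam, which stood at −0.048, −0.061 and −0.12 without replicates 15 and 17, where the median was 0.027. With the GC and length correction described below 5 of 6 were positive. None was called, and 2 (Gja1 and Gjb6) had an unadjusted p below 0.05 with all libraries and 0 without replicates 15 and 17. Gja1 (chr10:56377330-56402513), a connexin gene, varied least between mice of a group among the 31 genes, with a within-group SD of 0.13 on the log2 scale. It stood at 199, 195, 191, 193 and 229.6 CPM in F2 stress and at 162, 139.8, 196, 182 and 187 CPM in F2 no-stress. Every stress library was above 4 of the 5 no-stress libraries, and no-stress replicate 17 was the lowest of the 10. The log2 fold change was 0.22 ± 0.08 (SE, adjusted p 0.110) and 0.10 without replicates 15 and 17. The F1 values were 173, 174, 189, 189 and 187 CPM in stress and 191, 188, 168, 166 and 174 CPM in no-stress, with a log2 fold change of 0.040 ± 0.08.

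Gjb6 (chr14:57123303-57133611), the gene of a second connexin, showed a wider spread. In F2 stress it was 24.6, 17.8, 34.8, 35.3 and 31.99 CPM and in F2 no-stress 26.6, 15.6, 23.8, 20.01 and 25.1 CPM. Replicates 13, 14 and 15 lay above every no-stress library, and replicate 12 lay below all of them except replicate 17. The F2 log2 fold change was 0.38 ± 0.16 (SE, adjusted p 0.145), and 0.24 (adjusted p 0.385) without replicates 15 and 17. In F1 it was 19.997, 24.3, 23.8, 22.8 and 17.8 CPM in stress and 23.8, 21.4, 20.05, 22.2 and 19.4 CPM in no-stress, a log2 fold change of 0.025 ± 0.16.

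Aqp4 (chr18:15389496-15410982) overlapped widely between lineages. It was 112, 142, 89.9, 68.2 and 143 CPM in F2 stress and 95.8, 87.9, 128, 93.9 and 109 CPM in F2 no-stress. Stress replicates 12 and 15 were highest and replicate 14 lowest of the 10, and the log2 fold change was 0.11 ± 0.16 (SE, adjusted p 0.723). Its F1 values were 128, 84.5, 101, 114 and 105 CPM in stress and 109, 126, 112, 109 and 136 CPM in no-stress, a log2 fold change of −0.15 ± 0.16. The F2 value was −0.028 with the GC and length correction, −0.00087 without replicate 15 and −0.048 without replicates 15 and 17.

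Cldn10 (chr14:118787908-118875489), of the claudin family of junction proteins, had values of opposite sign in the generations. In F1 it was 21.7, 19.02, 17.2, 16.1 and 24.1 CPM in stress and 21.5, 24.8, 21.9, 25.2 and 25.4 CPM in no-stress, with a log2 fold change of −0.28 ± 0.15 (SE, adjusted p 0.739). In F2 it was 25.4, 21.7, 35.03, 22.4 and 29.4 CPM in stress and 22.5, 16.2, 28.1, 21.4 and 22.8 CPM in no-stress, with 0.27 ± 0.14 (adjusted p 0.246). In both generations the groups overlapped. Mlc1 and Hepacam, whose proteins form a complex at astrocyte junctions, had F2 values of 0.10 ± 0.10 and 0.048 ± 0.11 and F1 values of −0.10 ± 0.10 and −0.072 ± 0.11. The F2 value of Cldn10 was 0.14 without replicates 15 and 17.

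**Figure D4:**
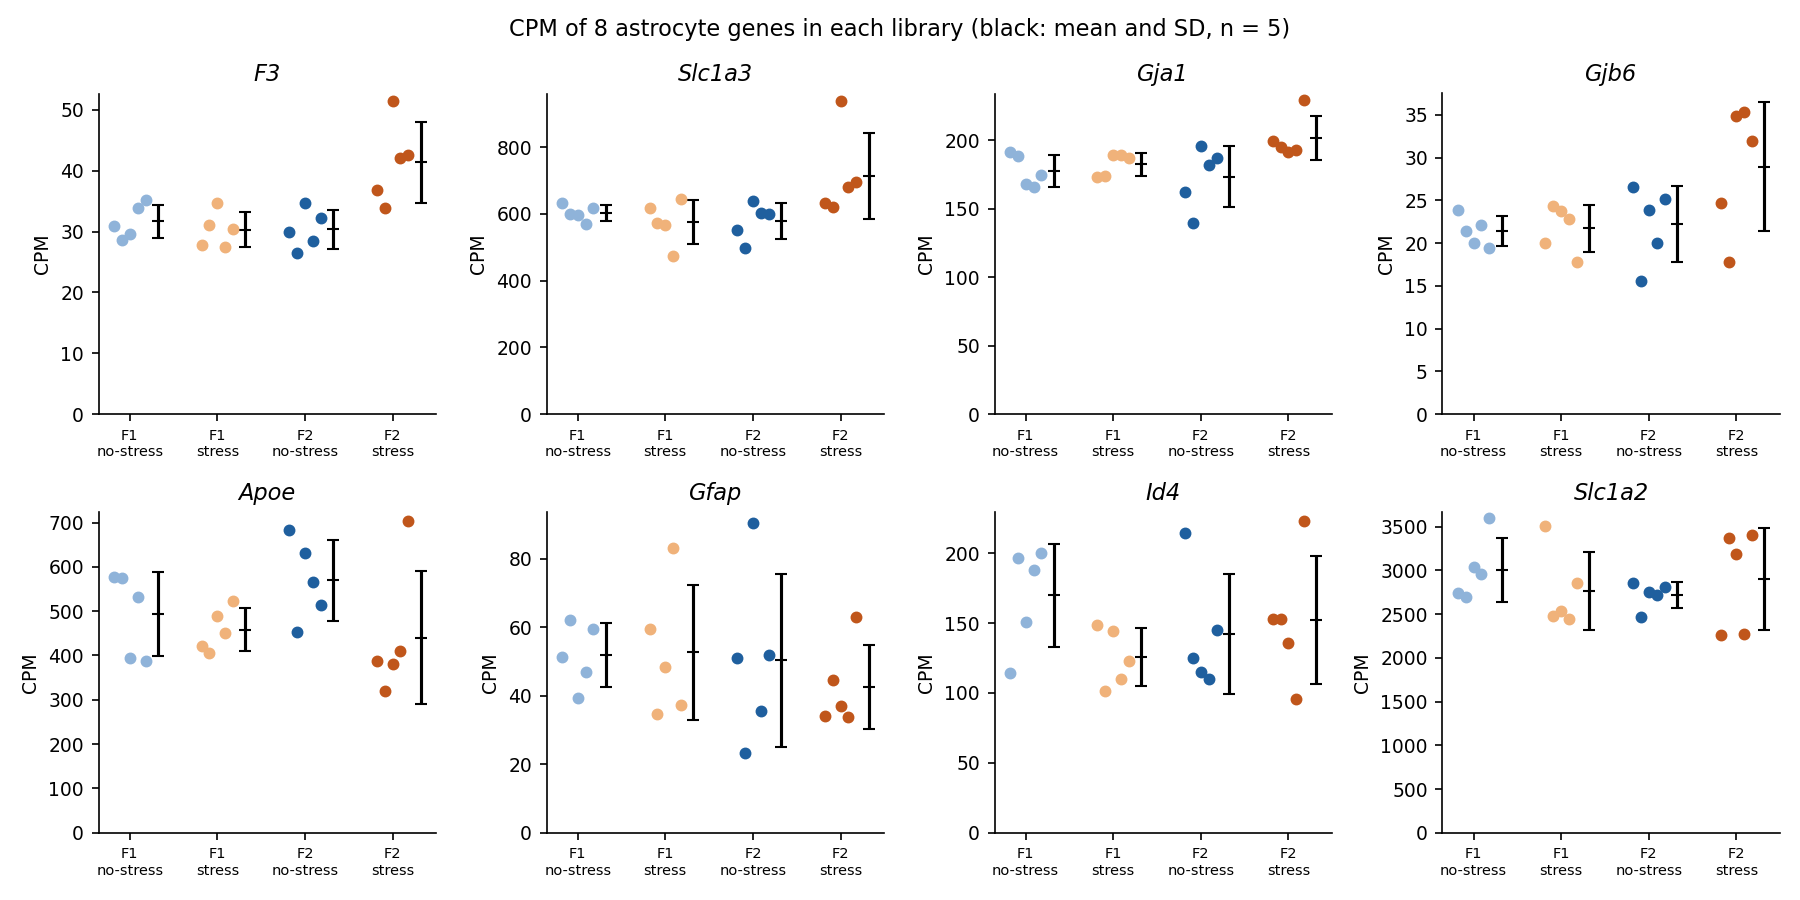
CPM of 8 astrocyte genes in each library by group, with the mean and SD of 5 libraries in black and each axis starting at 0. The F3 points of F2 stress lie at 33.9 to 51.4 CPM and those of the other 3 groups between 26.5 and 35.1 CPM, while Gfap and Apoe overlap in all groups.

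Ion transport genes were 3, and none was called. The sodium bicarbonate cotransporter gene Slc4a4 had a log2 fold change of 0.083 ± 0.13 in F2 and −0.18 ± 0.13 in F1, and Atp13a4 had 0.23 ± 0.22 and 0.14 ± 0.23. Ttyh1, which encodes a membrane protein of the tweety family, had −0.16 ± 0.09 and −0.072 ± 0.09. Its F2 stress libraries held 358, 393, 382, 347 and 509 CPM and its F2 no-stress libraries 496, 417, 458, 424 and 430.4 CPM. Apart from replicate 15, at 509 CPM, every stress library was below every no-stress library. Without replicate 15 the Ttyh1 value was −0.27 and was called by edgeR (adjusted p 0.0253), against 14.4% of all genes in that fit; Ttyh1 is shown in full because of that call, seen afterwards. With both replicates 15 and 17 left out, Slc4a4 stood at −0.0088, Atp13a4 at 0.24 and Ttyh1 at −0.29 (adjusted p 0.0351).

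Metabolic genes were 6, with F2 values from −0.22 to 0.12, 3 of them positive, and none was called. All 6 were negative without replicates 15 and 17, from −0.38 (Acsbg1, adjusted p 0.0534) to −0.013 (Plpp3), and none was called; with the GC and length correction 3 were positive. Aldh1l1 (chr6:90486427-90600203) encodes a folate enzyme used as a pan-astrocyte marker. It was 35.5, 40.4, 51.8, 39.2 and 55.5 CPM in F2 stress and 62.9, 43.1, 53.2, 49.1 and 48.3 CPM in F2 no-stress. Stress replicates 13 and 15 were within the no-stress range and the other 3 stress libraries below it. The log2 fold change was −0.21 ± 0.12 (SE, adjusted p 0.307). Its F1 levels, 40.4, 42.4, 51.8, 46.6 and 46.2 CPM in stress and 51.6, 43.1, 38.7, 47.6 and 39.5 CPM in no-stress, gave 0.045 ± 0.12.

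Ppp1r3c (chr19:36731731-36736653), which encodes a subunit that brings a phosphatase to glycogen, had 1 of the 4 smallest F1 p-values of the set. F1 stress libraries held 44.1, 33.9, 36.98, 33.4 and 42.8 CPM and F1 no-stress libraries 39.3, 42.3, 45.2, 44.6 and 48.9 CPM. Stress replicates 2, 3 and 4 were below all no-stress libraries and the other 2 within their range. The F1 log2 fold change was −0.20 ± 0.13 (SE, adjusted p 0.740). In F2 it was 37.2, 43.4, 36.8, 34.3 and 55.7 CPM in stress and 38.5, 29.1, 41.8, 40.6 and 43.1 CPM in no-stress, with 0.10 ± 0.13 (adjusted p 0.654). The F2 values of the other 4 were −0.088 ± 0.12 for the glycolytic aldolase gene Aldoc, −0.22 ± 0.12 for the fatty acid activating enzyme gene Acsbg1, 0.12 ± 0.14 for Ndrg2 and 0.057 ± 0.09 for the lipid phosphatase gene Plpp3.

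Secreted and lipid-carrying proteins were represented by 4 genes, none of them called. Apoe (chr7:19696109-19699188) encodes the main lipid carrier of the brain. In F2 stress it was 388, 320.1, 381, 409 and 703 CPM and in F2 no-stress 683, 454, 631, 567 and 514 CPM. Replicates 11 to 14 were below every no-stress library, and replicate 15, at 703 CPM, was above every one of them. The log2 fold change was −0.37 ± 0.18 (SE, adjusted p 0.189). Without replicate 15 it was −0.61 and was called (edgeR adjusted p 0.00936), and without replicates 15 and 17 it was −0.67 (adjusted p 0.0112). With the GC and length correction and all libraries it was −0.046 (adjusted p 0.911). The F1 values of Apoe were 422, 407, 488, 452 and 523 CPM in stress and 577, 575, 395, 532 and 388 CPM in no-stress, overlapping groups with −0.11 ± 0.18.

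Apoe is also made by microglia, whose 15 markers summed to 909 CPM in replicate 15, the highest of the 20 libraries, against 436 to 721 CPM elsewhere in F2. The part of this difference in the Apoe value was not tested. S100b (chr10:76253853-76261159), the gene of a calcium-binding protein that astrocytes release, was 86.2, 82.7, 84.9, 72.6 and 103 CPM in F1 stress and 103, 103, 109, 97.6 and 88.2 CPM in F1 no-stress. Of the stress libraries, 4 were below every no-stress library and replicate 5 was within their range, with a log2 fold change of −0.22 ± 0.11 (SE, adjusted p 0.739). In F2 its values were 97.2, 89.4, 117, 78.1 and 117 CPM in stress and 96.5, 76.6, 104, 97.2 and 99.5 CPM in no-stress, a log2 fold change of 0.073 ± 0.11. Sparcl1 had F2 and F1 values of 0.16 ± 0.11 and 0.031 ± 0.11, and Clu, which encodes the chaperone clusterin, had −0.041 ± 0.12 and 0.011 ± 0.12. The F2 values without replicates 15 and 17 were −0.056 for S100b, 0.065 for Sparcl1 and −0.21 for Clu, and with the GC and length correction S100b stood at −0.012 and Clu at 0.15.

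Among the 4 cell surface receptor genes, F3 was the called one. The others had negative F2 values, −0.24 ± 0.14 for the growth factor receptor gene Fgfr3, −0.17 ± 0.12 for the orphan receptor gene Gpr37l1 and −0.064 ± 0.12 for the neurotensin receptor gene Ntsr2. Their F1 values were 0.071 ± 0.14, −0.060 ± 0.12 and 0.073 ± 0.12, and none of the 6 values was called. With the GC and length correction all 3 turned positive, at 0.017 for Fgfr3, 0.093 for Gpr37l1 and 0.27 for Ntsr2. They stood at −0.36, −0.31 and −0.23 without replicates 15 and 17, each with an unadjusted p below 0.05 and none called.

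Regulators of transcription and the cytoskeleton were Id4, Sox9 and Gfap, and none was called. Id4 (chr13:48261228-48266026), an inhibitor of basic helix-loop-helix factors, had the largest F1 value of the set, −0.44 ± 0.21 (SE), with an unadjusted edgeR p of 0.0523 and an adjusted p of 0.739. Its F1 stress libraries were at 149, 101, 144, 110.0 and 123 CPM and its F1 no-stress libraries at 114, 196, 151, 188 and 200.0 CPM. The no-stress libraries were mostly higher, but replicate 6, at 114 CPM, lay among the stress libraries. In F2 Id4 was 153, 153, 136, 95.9 and 223 CPM in stress and 215, 125, 115, 109.7 and 145 CPM in no-stress, with 0.10 ± 0.21. Sox9, a transcription factor of glial fate, had an F2 value of −0.29 ± 0.13 (unadjusted p 0.0406, adjusted p 0.174) and an F1 value of −0.14 ± 0.13. Id4 stood at −0.12 and Sox9 at −0.38 without replicates 15 and 17, and with the GC and length correction Id4 stood at −0.044.

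Gfap (chr11:102887336-102900912) varied most between mice of a group, with a within-group SD of 0.50 on the log2 scale. It was 34.05, 44.5, 36.96, 33.8 and 62.9 CPM in F2 stress and 51.1, 23.2, 90.2, 35.6 and 51.8 CPM in F2 no-stress. The no-stress group held both the lowest and the highest of the 20 values, replicates 17 and 18, and the log2 fold change was −0.25 ± 0.29 (SE, adjusted p 0.633). F1 stress libraries had 59.5, 34.7, 48.5, 83.2 and 37.4 CPM and F1 no-stress libraries 51.3, 62.04, 39.2, 47.05 and 59.6 CPM, with 0.023 ± 0.29. With an SE near 0.29 in both generations, a difference of the size seen in F3 would not have been detectable for Gfap. Leaving out replicates 15 and 17 gave −0.61 in F2 (adjusted p 0.159), and with the GC and length correction −0.055.

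An interaction term asked whether the lineage difference was the same in both generations. The values of F1 and F2 had opposite signs for 20 of the 31 genes, but 0 of 31 interactions were called by edgeR, against 2.52% of all genes, with 3 at an unadjusted p below 0.05 (F3, Cldn10 and Slc1a3) against 21.2%. The F3 interaction was 0.51 ± 0.15 (SE, adjusted p 0.0666), that of Cldn10 0.55 ± 0.21 and that of Slc1a3 0.37 ± 0.15. DESeq2 called F3 at 0.52 (adjusted p 0.0253; 8.01% of all genes called), and limma-voom called 0 of 31 (2.16%). In edgeR, F3 was also called without F2 stress replicate 14 (0.50; 8.89% of all genes called), without F2 no-stress replicate 18 (0.56; 4.58%) and at an adjusted p below 0.1 (8.12%). Of 31 interactions 0 were called without replicates 15 and 17 (0% of all genes), with 7 at an unadjusted p below 0.05 (19.8%), and the F3 interaction was 0.46 (adjusted p 0.120).

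Generations were also compared within a lineage; these comparisons use the same libraries as those above. Within the no-stress lineage 0 of 31 astrocyte genes were called between F2 and F1 (edgeR; 2% of all genes called), with 1 at an unadjusted p below 0.05 (20.2% of all genes), Slc7a10 at 0.42 ± 0.19. Without F1 no-stress replicate 6, Slc7a10 was called at 0.63 (adjusted p 0.0373), against 4.29% of all genes. Within the stress lineage 0 of 31 were called (0.012% of all genes), with 4 at an unadjusted p below 0.05 (6.99% of all genes). These were F3 at 0.45 ± 0.11 (adjusted p 0.643), Cldn10 at 0.45 ± 0.15, Slc1a3 at 0.31 ± 0.11 and Gjb6 at 0.41 ± 0.16, each higher in F2. Of the 31 values within the stress lineage, 25 were positive, with a median of 0.12 against 0.0089 over all genes. When replicates 15 and 17 were left out, 18 were positive with a median of 0.021, and 5 had an unadjusted p below 0.05 (7.6% of all genes), the same 4 and Apoe at −0.30. In that fit 6 had an unadjusted p below 0.05 within the no-stress lineage (17.7% of all genes), and 0 of 31 were called in either lineage (0% of all genes in both). DESeq2 called 0 of 31 in both of these comparisons (6.74% of all genes in the no-stress and 0.0202% in the stress lineage), as did limma-voom (1.76% and 0.00598%).

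The F2 values of the astrocyte genes followed the base composition of their transcripts. GC content of the transcripts ran from 41.4% (Aqp4) to 59.8% (Ntsr2), with a median of 49.8%. Of 16 genes with a GC content below 50%, 14 had a positive F2 value, and of 15 with 50% or more, 11 had a negative one. Over all tested genes the split was alike, with 6176 of 8500 positive below 50% and 5984 of 8192 negative at 50% or more. Spearman's rho between GC content and F2 log2 fold change was −0.69 across the 31 genes and −0.55 across the 16692 tested genes with a known GC content; genes are not independent replicates, and all share the same 10 libraries. The relation thus had the same sign in the set and over all genes. Without replicates 15 and 17 rho was −0.68. The values then shifted downward as a whole, the direction set by the choice of these libraries. Of the 31 values 7 were positive and 24 negative, with a median of −0.11. In F1 rho was 0.49 across the 31 genes and −0.00305 across all genes.

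Stretches of 120 coding bases with a composition near that of the whole transcript show the range, with G and C in capitals. Apoe and Ntsr2 are the members richest in G and C, and F3 and Slc1a3 are members of lower GC content with positive F2 values. Coding bases 19 to 138 of Apoe, 217 to 336 of Ntsr2, 61 to 180 of F3 and 79 to 198 of Slc1a3 are given 5′ to 3′, from GENCODE transcripts of GRCm38.
Apoe: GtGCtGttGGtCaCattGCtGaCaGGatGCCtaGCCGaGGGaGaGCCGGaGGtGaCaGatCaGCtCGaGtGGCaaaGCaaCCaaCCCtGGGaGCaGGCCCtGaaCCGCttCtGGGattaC
Ntsr2: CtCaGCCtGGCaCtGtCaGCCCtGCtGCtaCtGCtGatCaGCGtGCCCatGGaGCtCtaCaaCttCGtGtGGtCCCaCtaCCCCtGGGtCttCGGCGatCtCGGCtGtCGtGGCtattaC
F3: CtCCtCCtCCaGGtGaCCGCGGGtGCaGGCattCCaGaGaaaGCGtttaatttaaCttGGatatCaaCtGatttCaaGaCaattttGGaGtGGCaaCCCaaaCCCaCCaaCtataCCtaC
Slc1a3: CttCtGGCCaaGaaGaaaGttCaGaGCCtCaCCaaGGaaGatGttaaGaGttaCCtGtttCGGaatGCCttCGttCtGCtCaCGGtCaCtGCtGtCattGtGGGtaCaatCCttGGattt
G and C make up 71 of the 120 bases for Apoe, 72 for Ntsr2, 56 for F3 and 56 for Slc1a3.

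The libraries themselves differed in this respect. Over the tested genes that are not in the set, the median log2 deviation in the richest of 10 GC bins minus that in the poorest averaged 0.33 ± 0.26 in F2 no-stress and −0.19 ± 0.25 in F2 stress (SD, n = 5). The F1 groups averaged −0.070 ± 0.22 in no-stress and −0.071 ± 0.14 in stress. Replicate 15 of the F2 stress group, at 0.20, and replicate 20 of the F2 no-stress group, at −0.089, had the sign of the opposite lineage. When the trends of every library with the GC content and length of transcripts were entered as an offset, rho across the 31 genes became −0.061. Over all genes it became −0.012. A small rho is built into this step, as the trends were fitted over the tested genes, the 31 included. Because the trends differed between the F2 lineages, the offset also takes out any lineage difference that runs along GC content. Under that offset 0 of 31 genes were called in F2, against 0.00598% of all genes, with 3 at an unadjusted p below 0.05 (13.9% of all genes). The largest values then were Gjb6 at 0.34, F3 at 0.33 and Sox9 at −0.31, and Gja1 fell from 0.22 to 0.10. The cause of the trends with GC content was not tested.

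**Figure D5:**
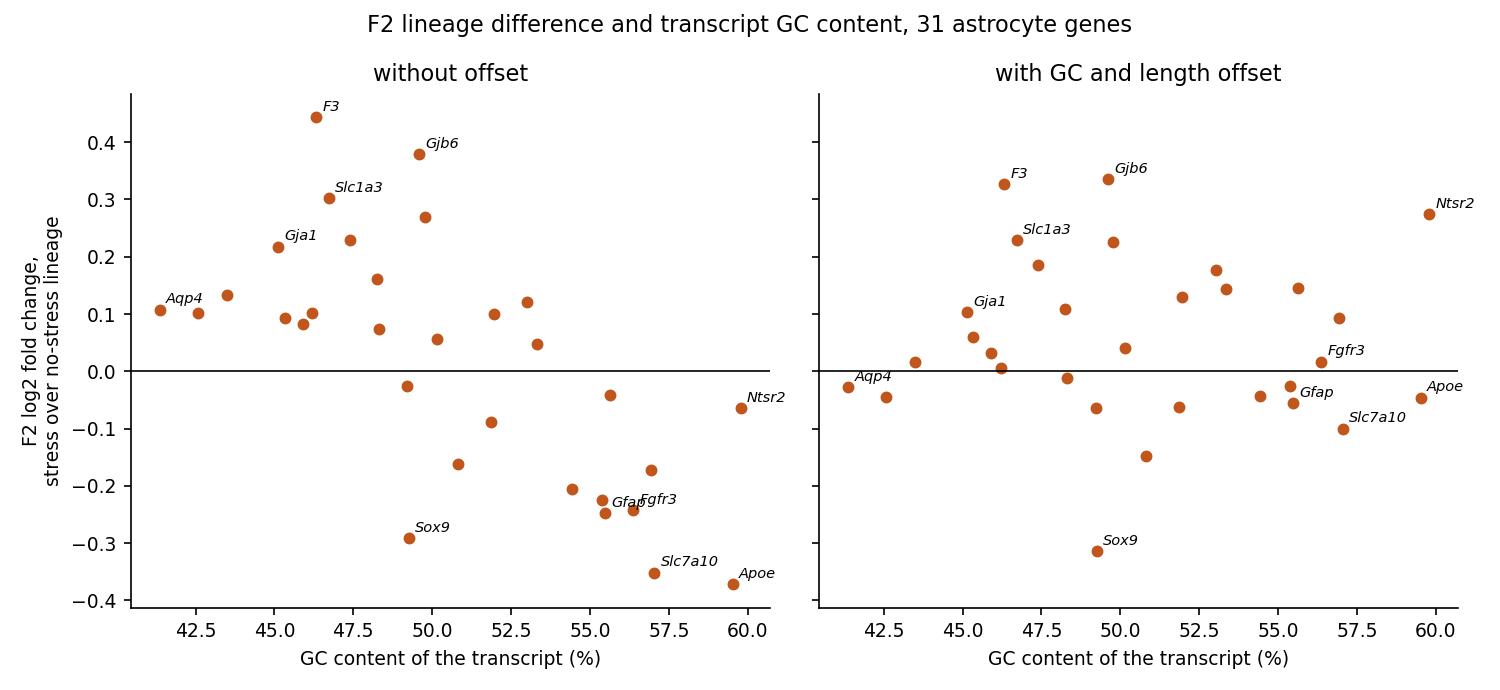
GC content of the transcript against the F2 log2 fold change of the stress over the no-stress lineage, 1 point per astrocyte gene, without (left) and with (right) the offset for GC content and length. Spearman's rho is −0.69 on the left and −0.061 on the right, where the offset removes the trend by construction. On the right F3, Gjb6 and Sox9 have values beyond 0.3 in size.

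Across mice of a group, the astrocyte genes mostly rose and fell together, and less so without 2 libraries. With group means removed, the 465 pairs had a median Pearson r of 0.40 over 20 libraries, and 411 were positive. Without libraries 15 and 17 of the F2 groups the median was 0.17 and 313 pairs were positive. These libraries were picked because nearly all members moved together in them, so a lower correlation without them was built in. These correlations describe genes that share libraries and carry no test. The closest pairs were Acsbg1 with Gpr37l1 (r = 0.90), Glul with Ttyh1 (0.87), Ndrg2 with Sparcl1 (0.86) and Hepacam with Gpr37l1 (0.85). Without the 2 libraries these 4 pairs stood at 0.86, 0.84, 0.79 and 0.78. Gja1 with Mlc1 went from 0.84 to 0.58. Atp13a4 ran against other members, with r of −0.55 with Clu and −0.52 with Aqp4, and −0.70 and −0.57 without the 2 libraries.

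Correlation with the mean of the other 30 genes ranked Mlc1 (0.84), Glul (0.83), Hepacam (0.83) and Acsbg1 (0.82) highest. Lowest were Atp13a4 (0.09), Slc15a2 (0.10), Aqp4 (0.32) and Id4 (0.33). The median fell from 0.64 to 0.44 without replicates 15 and 17, a fall that the choice of these libraries builds in. Acsbg1 was then highest at 0.75, and 3 genes were negative, Slc15a2 at −0.52, Aqp4 at −0.096 and Ppp1r3c at −0.083, down from 0.63. F3 had 0.49 with all libraries and also 0.49 without these 2.

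Other genes of the same cells are read against the shares over all genes in F2, 7.92% called and 25.6% at an unadjusted p below 0.05. Of 46 further astrocyte genes, 1 was called in F2, with 9 at an unadjusted p below 0.05. The called gene was Bcan, which encodes the matrix proteoglycan brevican and is also made by oligodendrocyte precursors. It was at 147 ± 37.7 CPM in F2 stress and 210 ± 28.7 CPM in F2 no-stress (SD, n = 5), a log2 fold change of −0.52 ± 0.14 (SE, edgeR adjusted p 0.0255), and −0.10 (adjusted p 0.689) with the GC and length offset. The median of the 46 was −0.060 in F2 and −0.066 in F1. Of 28 genes of reactive astrocytes 22 were tested, and edgeR called 0, with 3 at an unadjusted p below 0.05 in F2 and 1 in F1; their medians were 0.17 and 0.016. Of 25 neuronal and enzymatic partners of astrocyte glutamate and potassium handling, 0 were called, with 1 at an unadjusted p below 0.05 in each generation and medians of 0.014 in F2 and 0.011 in F1. Without replicates 15 and 17, 5 of the 46 were called, all lower in F2 stress (Bcan, Axl, Mt1, Mt2 and Hes5, named after the values were seen), against 9.56% of all genes, and 0 of the reactive and partner genes were. In the summed level of the 46 genes, replicate 15 ranked 2 and replicate 17 ranked 20 from the highest. Lower values in that fit thus go the way set by the choice of these libraries.

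Markers of other cells moved as follows. None of 18 neuronal, 15 tested oligodendrocyte, 11 oligodendrocyte precursor, 16 microglial (15 symbols, 1 of them in 2 rows), 14 mural and meningeal, 5 tested ependymal and choroid plexus and 14 striatal markers was called by edgeR in F1 or F2. In F2, unadjusted p was below 0.05 for 3, 1, 2, 1, 4, 0 and 0 of them in that order, against 25.6% of all genes. Of 14 endothelial markers 3 were lower in F2 stress, Egfl7 at −0.57, Tie1 at −0.58 and Cldn5 at −0.49 (adjusted p 0.0107, 0.0287 and 0.0411), and none of the 3 was called with the GC and length offset; 5.28% of all genes were called lower. Without replicates 15 and 17 the same 3 endothelial markers were called, and so were 1 neuronal (Slc32a1), 3 microglial (Trem2, C1qa and C1qc) and 2 mural (Pdgfrb and Tagln) markers, all lower in F2 stress and named after their values were seen, against 9.56% of all genes. All 14 striatal markers had negative F2 values in that fit, with a median of −0.67. Replicate 15, left out there, was the highest of the 20 libraries in the summed striatal (9859 CPM) and microglial (909 CPM) markers. It ranked 2 from the highest in the endothelial and in the mural and meningeal markers. Lower F2 stress values of these lists in that fit thus go the way set by leaving it out and are not independent evidence. All 14 striatal markers had negative F1 values, with a median of −0.84, and all 16 microglial rows did, with a median of −0.19. The part of these cells in the astrocyte values was not tested.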

How the data were processed

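Per the labels' protocols, stranded poly-A libraries were made from punches of both amygdalae of 20 mice. The authors deposited whole-number counts for each gene and mouse. Alignment used STAR 2.5.3a and GRCm38, per the submitters' processing notes. Neither the counting tool nor its annotation or strand setting is given in the sources used here. Totals ran from 13654890 to 13714805 and so differed by 0.439%, less than separately sequenced libraries usually do. The sources used here give no step that would set them alike, and the depth at sequencing is unknown.

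The main test was the quasi-likelihood test of edgeR 4.0.16 (R 4.3.3; robust, TMM factors 0.956 to 1.042, filterByExpr, 1 mean per group, 20 libraries in 1 fit), adjusted by Benjamini-Hochberg over 16727 genes. The biological coefficient of variation was 18.1%. CPM use TMM-scaled totals, and log2 levels add 0.5. Other settings were DESeq2 1.42.0, limma-voom (limma 3.58.1), relative log expression factors, library totals, no filter, at least 1 CPM in 5 or more libraries, an offset for transcript GC content and length (per library, splines with 5 degrees of freedom), 1 surrogate variable (sva 3.50.0), only the groups compared, an adjusted p of 0.1, and each library left out in turn. Added after the data were seen were fits without libraries 15 and 17, both of F2, and 2 covariates for F3. The fit was tested on simulated counts. Figures were drawn with matplotlib 3.10.9.

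Lengths and GC content come from the longest basic coding transcript of each gene in GENCODE vM21. The members, gene lists and rules were chosen with earlier results of these data known. Genes shown by library were those called, the 4 with the smallest p in each lineage comparison, and Gfap, Aqp4, Slc1a2, Slc1a3, Gja1, Aldh1l1, Glul and Apoe; from other lists, called genes only. No test was run over the set as a whole. The oligodendrocyte calls without libraries 15 and 17 are not reported here.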

Additional observations from a re-analysis of the deposited data

Results flagged for a closer look

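Of 128 groups of 5 libraries examined (31 genes and their sum in 4 groups), 9 held a library whose gap to its nearest neighbour was more than 0.71 of the group's range; chance gives such a gap in about 1 group in 20. F2 stress replicate 15 was the high library for Apoe (703 CPM, next 409), Clu (842 CPM, next 604), Ttyh1 (509 CPM, next 393), Gja1 (229.6 CPM, next 199) and Mlc1 (192 CPM, next 151). F2 no-stress replicate 17 was the low library for Plpp3 (201 CPM, next 245), S100b (76.6 CPM, next 96.5) and the sum of the 31 genes (8867 CPM, next 10720). F2 stress replicate 13 was the high library for Slc1a3 (938 CPM, next 696).

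Replicate 15 was also highest of the 20 libraries in the summed microglial markers (909 CPM) and striatal markers (9859 CPM), and ranked 18 from the highest in the neuronal markers (10885 CPM). It ranked 2 in the oligodendrocyte, endothelial, and mural and meningeal markers. In the oligodendrocyte precursor markers it ranked 4, and in the ependymal and choroid plexus markers 10. Replicate 17 ranked 17 in the oligodendrocyte markers (3088 CPM) and 18 in the microglial markers (574 CPM). It ranked 16 in the precursor markers, 9 in the ependymal and choroid plexus markers and 7 in the neuronal markers. In the endothelial, the mural and meningeal, and the striatal markers it ranked 6. The part of these levels in the values above was not tested.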

How the results depend on the processing

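The count of astrocyte genes called in F2, 1 with all libraries, was 2 with DESeq2 and 2 at an adjusted p below 0.1 (Slc1a3 and F3 in both), 0 with the GC and length offset, 0 with only the groups compared, and 0 to 3 over the fits without 1 library. F3 was called in 18 of these 20 fits, the exceptions being those without F2 stress replicate 13 or F2 no-stress replicate 17. The fits without an F1 library keep every F2 library and say little about the F2 call. Without replicate 15, and without replicates 15 and 17 together, the count was 3 (Apoe, F3 and Ttyh1). The interaction count, 0 with all libraries, was 1 (F3) with DESeq2 and 1 at an adjusted p below 0.1, and 0 to 1 without 1 library. The count between generations in the no-stress lineage was 0 to 1 without 1 library. Counts for F1, and between generations in the stress lineage, were 0 under every setting run. No paired analysis was possible because each mouse has its own replicate number.

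Of 871 recomputed values of the genes shown by library, 833 kept their direction and side of the threshold, 4 lost a call, 6 gained one and 28 changed sign, none of them called. With the GC and length offset the F2 values of Aqp4 (−0.028), Id4 (−0.044) and S100b (−0.012) changed sign. With 1 surrogate variable the F1 values of Aqp4 (0.037), Slc1a2 (0.011) and Gjb6 (−0.058) did, and with limma-voom the F1 value of Gfap (−0.034). Without replicates 15 and 17 the F2 values of Aqp4 (−0.048), Slc1a2 (−0.0015), Id4 (−0.12), S100b (−0.056) and Ppp1r3c (−0.11) did. Over all 31 genes the F2 sign changed in 7 with the offset and in 11 without replicates 15 and 17. The fits without 1 library gave ranges in F1 of −0.20 to 0.14 for Gfap, −0.0062 to 0.11 for Aldh1l1 and −0.019 to 0.088 for Gjb6. In F2 they gave −0.43 to 0.071 for Gfap, −0.00087 to 0.24 for Aqp4, −0.14 to 0.027 for Glul, −0.077 to 0.30 for Id4 and −0.027 to 0.16 for Ppp1r3c. The cause was not tested. The depth at sequencing is unknown, so no counting error is given.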
